A study of Rattus norvegicus with 10 samples.

Results

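The transcripts followed here are those of the rat major histocompatibility complex (MHC, called RT1 in the rat) and of the machinery that loads peptides onto its products. Members were taken by name, as every non-control probe whose gene name begins with RT1 or is Cd74, B2m, Tap1, Tap2, Tapbp, Ciita, Psmb8, Psmb9 or Psmb10. The rule found 61 probes for 43 gene names, of 41012 probes for 35469 gene names on the array. The class I pathway held 46 probes for 33 genes and the class II pathway 15 probes for 10 genes. RNA was measured in milk whey, the fluid that remains once centrifugation has removed fat, cells and casein, of 3 dams of the inbred strain F344/N on d 2, d 9 and d 16 postpartum. The same 3 dams were milked on each day, after oxytocin, which gave 9 whey arrays. Serum was drawn from the dams on d 21, and RNA of the 3 dams was mixed for 1 array, so serum had no replicate and entered no test. The labels name no allele and no agent besides oxytocin.

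Class I molecules, made of a heavy chain and beta-2-microglobulin, show peptides from inside the cell to CD8 T cells and are made by nearly all nucleated cells. The peptides come from the proteasome, which carries other catalytic subunits after interferon-gamma, and are pumped into the endoplasmic reticulum by TAP and fitted to the heavy chain with the help of tapasin. Class II molecules, made of an alpha and a beta chain, show peptides from engulfed material to CD4 T cells and are made mainly by macrophages, dendritic cells and B cells. Their assembly needs the invariant chain and the DM editor, and their genes are switched on together by the transactivator CIITA.

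Probes are 60 bases long, and those of different RT1 loci can be close to each other in sequence. Of the 36 RT1 class I probes, 13 shared at least 40 aligned bases at 85% identity or more with a probe of another gene, and of the 13 RT1 class II probes none did. Levels of single class I loci are therefore uncertain, because cross-hybridization could not be checked against transcripts. The probes below come from a stretch common to class I heavy chains, with capitals marking the bases that differ from the RT1-CE1 probe where the 2 align. Among them only the RT1-CE12 probe was that close to the RT1-CE1 probe. The RT1-CE4 and RT1-T18 probes were that close to each other, with 50 of 57 aligned bases identical.

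RT1-CE1: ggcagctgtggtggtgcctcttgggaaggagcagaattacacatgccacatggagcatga
RT1-CE12: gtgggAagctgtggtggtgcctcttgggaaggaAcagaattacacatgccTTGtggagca
RT1-M6-2: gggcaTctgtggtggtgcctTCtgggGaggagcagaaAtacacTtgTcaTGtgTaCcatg
RT1-CE4: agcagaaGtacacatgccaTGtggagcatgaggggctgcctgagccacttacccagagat
RT1-T18: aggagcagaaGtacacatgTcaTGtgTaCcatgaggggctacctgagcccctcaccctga

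The RT1-CE12 probe differed from that of RT1-CE1 at 5 of 57 aligned bases and the RT1-M6-2 probe at 11 of 59. On the array design's build rn4 the RT1-CE1 probe lies on chromosome 20 at 3595725 to 3595784 and the RT1-M6-2 probe at 1677337 to 1677396. The RT1-CE1, RT1-CE12, RT1-M6-2 and RT1-CE4 probes were well above background on all 10 arrays, whereas the RT1-T18 probe (2757605 to 2757664) was so on none.

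Among class II genes, RT1-Ba and RT1-Db1 had probes that disagreed, and these are shown for that reason. For RT1-Ba, capitals mark the bases of the second probe that differ from the first where they align, 5 of 54, besides a gap. The RT1-Db1 and RT1-Db2 probes come from separate stretches and carry no capitals.

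RT1-Ba, probe 1: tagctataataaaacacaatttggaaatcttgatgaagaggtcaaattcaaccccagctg
RT1-Ba, probe 2: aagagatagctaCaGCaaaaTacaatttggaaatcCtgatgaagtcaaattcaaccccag
RT1-Db1, probe 1: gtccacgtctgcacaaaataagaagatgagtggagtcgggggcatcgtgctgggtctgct
RT1-Db1, probe 2: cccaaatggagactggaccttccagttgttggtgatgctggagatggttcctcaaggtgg
RT1-Db1, probe 3: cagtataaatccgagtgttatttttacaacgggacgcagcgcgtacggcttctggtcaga
RT1-Db2: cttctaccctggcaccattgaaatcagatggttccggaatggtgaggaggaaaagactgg

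The first RT1-Ba probe has no rn4 position in the design, and the second lies on chromosome 20 at 4700973 to 4701032. The RT1-Db1 probes lie on the minus strand at 4672677 to 4672736, 4673410 to 4673469 and 4677050 to 4677109, and that of RT1-Db2 at 4650316 to 4650375.

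Class II genes share a promoter layout, an X box bound by the RFX complex and a Y box bound by NF-Y, upstream of the start. The 160 bases before the start of RT1-Da, RT1-Bb and B2m are given from RefSeq in assembly GRCr8, in gene orientation, because both tested probes of RT1-Da, the tested probe of RT1-Bb and all 4 of B2m were higher on d 16 than on d 2. Capitals mark the Y core GATTGG in all 3, the X core CCNAGNNAC in the class II genes and the core of the interferon-stimulated response element (ISRE) in B2m. The windows are chr20:4515255-4515414 on the plus strand for RT1-Da, chr20:4604119-4604278 on the minus strand for RT1-Bb and chr3:129549170-129549329 on the plus strand for B2m.

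RT1-Da: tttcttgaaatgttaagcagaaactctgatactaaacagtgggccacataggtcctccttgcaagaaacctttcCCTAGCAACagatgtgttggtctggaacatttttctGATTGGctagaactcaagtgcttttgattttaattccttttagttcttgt
RT1-Bb: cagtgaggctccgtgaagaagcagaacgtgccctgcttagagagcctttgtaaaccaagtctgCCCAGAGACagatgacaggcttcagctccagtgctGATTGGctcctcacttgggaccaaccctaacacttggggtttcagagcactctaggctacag
B2m: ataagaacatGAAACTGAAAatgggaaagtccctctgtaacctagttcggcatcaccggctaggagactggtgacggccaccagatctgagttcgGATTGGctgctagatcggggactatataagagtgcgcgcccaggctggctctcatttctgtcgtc

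Over the whole RefSeq promoter windows and both strands, the Y core was found in 8 of 9 class II promoters (all but Cd74), 12 of 27 class I promoters and 15.3% of all 27457 promoters. The X core was found in 5 of 9, 9 of 27 and 17.6%, the ISRE core in 0 of 9, 8 of 27 and 3.77%, and the kB core GGGNNTTCC in 3 of 9, 6 of 27 and 5.97%. The 8 class I promoters with the ISRE core were those of B2m, Psmb8, Psmb10, Tap1, Tap2, Tapbp, RT1-N3 and RT1-S3. A match describes these letters alone.

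All levels are log2 of the quantile-normalized processed signal, and levels of different probes are not compared. Detection on a day needed 1 array or more on which the probe was flagged well above background and its processed signal passed 20, and 40 of the 61 probes were detected in whey and tested. Of the class I probes, 31 of 46 were tested and 23 were well above background on all 9 whey arrays. Of the class II probes, 9 of 15 were tested, 2 were so on all 9, and 6 of the 9 passed the filter through d 9 and d 16 alone, as did 8 of the 31 class I probes through later days. Passing because of a high signal on later days favours a difference from d 2, though it does not force one. Counts over tested probes therefore describe them and support nothing. By day, 3 class II probes were detected on d 2, 9 on d 9, 9 on d 16 and 4 in serum, against 23, 31, 29 and 22 class I probes.

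The arrays differed in brightness. The 75th percentile of the processed signal was 12.5 to 28.0 on d 2, 21.2 to 83.2 on d 9, 21.5 to 40.6 on d 16 and 4.11 in serum. The d 2 arrays of dams 1 and 2 shared slide 1, the d 2 array of dam 3 lay with all d 9 arrays on slide 2, and slide 3, scanned on another day, carried all d 16 arrays and serum, so d 16 and its slide cannot be told apart. Mammary epithelium markers averaged 12.24 to 12.88 on the whey arrays and 6.67 in serum, but moved between days, with the keratin genes Krt8, Krt18 and Krt19 lower on d 9 (-1.31, -0.90 and -2.75) and on d 16 than on d 2, and the milk protein genes Csn2, Csn3, Wap and Lalba higher on d 16. Their part in the results was not tested.

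Class II signals were low in whey of d 2. The 3 class II probes detected on d 2 were the first of RT1-Da, the first of RT1-Db1 and that of RT1-DMa, of which limma called 1 higher on d 9 (RT1-Da) and 2 higher on d 16 (RT1-Da and RT1-DMa). The other 6 tested probes, among them Cd74, were not detected on d 2, and all 6 were called higher on both later days. Counted together, from d 2 to d 9 limma called 7 of the 9 tested class II probes higher and 0 lower at an adjusted p under 0.05, against 17.6% of all 16849 tested probes called in either direction, 11.3% higher and 6.36% lower. On d 16 against d 2 it called 8 higher and 0 lower, against 28.5% called in either direction, 16.0% higher and 12.4% lower. On d 16 against d 9 it called 0, against 1.42%, although 4 had an unadjusted p under 0.05 and all 9 had a positive difference. In 7 of the 9 every d 9 value lay above every d 2 value, against 24.2% of tested probes that lay apart and higher and 38.8% that lay apart in either direction, and in 8 every d 16 value did, against 25.9% and 48.2%. Because of the filter nothing is read from the shares against d 2. The median log2 difference of the 9 probes on d 16 against d 9, where all were above background on every array, was 0.91 beside -0.06 over all tested probes, and with scaling to the spike-in probes 0.08 beside -0.93. Both comparisons with d 2 share the d 2 arrays.

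Cd74 (chromosome 18, 56765468 to 56765527) encodes the invariant chain, which fills the class II groove until the peptide is loaded. Its log2 signals were 3.50, 3.85 and 4.00 in dams 1, 2 and 3 on d 2, 6.61, 5.78 and 5.15 on d 9, 7.27, 6.94 and 7.37 on d 16 and 9.21 in serum. The 3 days did not overlap, and serum lay above every whey array. The difference from d 2 was 2.06 on the log2 scale on d 9 (SE 0.35, limma adjusted p 0.00881) and 3.41 on d 16 (SE 0.35, limma adjusted p 0.000744). From d 9 to d 16 it was 1.35 (SE 0.35, limma adjusted p 0.108). On d 2 the probe was well above background on 2 of 3 arrays, so the differences include a dim signal. The Cd74 probe passed the filter through later days alone, so its p-values against d 2 describe it and support nothing.

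RT1-Da, the alpha chain of the DR-like molecule, had probes that rose together. The first (chromosome 20, 4641104 to 4641163) had 4.73, 3.96 and 4.11 on d 2, 7.12, 6.24 and 5.50 on d 9, 7.95, 7.08 and 7.74 on d 16 and 8.01 in serum. Values of d 2 lay below all others, d 9 and d 16 overlapped, and serum lay just above the highest d 16 dam. The log2 difference was 2.02 on d 9 (SE 0.43, limma adjusted p 0.0188) and 3.32 on d 16 (SE 0.43, limma adjusted p 0.00181). The second probe (4638704 to 4638763) had 3.37, 2.65 and 2.58 on d 2, where no array was well above background, 5.56, 4.77 and 4.01 on d 9 and 6.20, 4.95 and 5.76 on d 16. It was at least 2.50-fold higher on d 9 (limma adjusted p 0.0280) and at least 4.51-fold higher on d 16 (limma adjusted p 0.00478). Such bounds set the dim day at the lowest signal well above background on each array, or at the probe's own signal where that is higher. The p-values printed beside bounds test the full difference from the dim values, not the bound. Probes with a bound passed the filter through later days alone, so those p-values describe them and support nothing.

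The beta chains that pair with it were RT1-Db1 and RT1-Db2. RT1-Db2 had 0.95, 0.91 and 2.57 on d 2, 5.27, 4.28 and 3.70 on d 9 and 5.44, 4.69 and 5.42 on d 16. No d 2 array and every later one was well above background, and the probe was at least 1.94-fold higher on d 9 (limma adjusted p 0.0120) and at least 3.30-fold higher on d 16 (limma adjusted p 0.00300). The serum value of 5.39 was not well above background.

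The 3 probes of RT1-Db1 disagreed. The first, well above background on all arrays, had 6.50, 5.85 and 5.42 on d 2, 6.82, 6.11 and 5.06 on d 9, 7.26, 6.39 and 7.08 on d 16 and 9.18 in serum. Its days overlapped, with log2 differences from d 2 of 0.07 on d 9 (95% interval -1.04 to 1.18, limma adjusted p 0.934) and 0.99 on d 16 (-0.12 to 2.10, limma adjusted p 0.160). The second had 3.35, 2.04 and 4.07 on d 2, 6.38, 5.64 and 4.69 on d 9, 7.11, 6.06 and 6.84 on d 16 and 7.48 in serum, and its d 2 values lay below all others. Its log2 difference from d 2 to d 9 was 2.42 (SE 0.60, limma adjusted p 0.0319). From d 2 to d 16 it was 3.52 (SE 0.60, limma adjusted p 0.00531), with 1 of 3 d 2 arrays well above background. The second probe passed the filter through later days alone, so these p-values describe it and support nothing. The third stayed at 1.17 to 1.94 and was not well above background on any array. Whether RT1 probes, placed by the design on rn4, match the RT1 haplotype of F344/N was not tested, so a probe at background does not show that the transcript is absent.

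RT1-Ba and RT1-Bb are the alpha and beta chains of the DQ-like molecule. RT1-Bb (chromosome 20, 4730533 to 4730583) had 1.07, 2.04 and 2.28 on d 2, 5.05, 4.93 and 4.40 on d 9, 5.50, 5.60 and 6.0 on d 16 and 7.81 in serum. The 3 days did not overlap, d 2 was not above background in any dam, and the probe was at least 2.52-fold higher on d 9 (limma adjusted p 0.00276) and at least 4.72-fold higher on d 16 (limma adjusted p 0.000462). Another RT1-Bb probe (4732962 to 4733021) was well above background on 1 whey array only, had 1.24 to 3.17 in whey and was not tested.

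The first RT1-Ba probe had 1.49, 1.07 and 2.00 on d 2, 3.99, 3.63 and 3.00 on d 9, 4.45, 3.72 and 4.25 on d 16 and 1.15 in serum. The d 2 and serum values were not well above background, and the later whey days overlapped with each other but not with d 2. The probe was at least 1.06-fold higher on d 9 (limma adjusted p 0.00857) and at least 1.60-fold higher on d 16 (limma adjusted p 0.00177). The second probe, which differs at the bases shown in capitals above, had 1.11 to 1.85 and was well above background on no array.

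RT1-DMa, a chain of the DM editor that exchanges the invariant chain fragment for peptide, had 4.13, 4.97 and 5.28 on d 2, 5.93, 5.61 and 5.02 on d 9, 6.26, 6.31 and 6.42 on d 16 and 6.48 in serum. The d 16 values lay close together and above all earlier values, while d 2 and d 9 overlapped. The log2 difference from d 2 was 0.72 on d 9 (SE 0.33, limma adjusted p 0.157) and 1.54 on d 16 (SE 0.33, limma adjusted p 0.0119). RT1-DOa and RT1-DOb, chains of the DO molecule that restrains DM, and the transactivator Ciita were not tested. Ciita had 0.93, 2.01 and 0.85 on d 2, 2.84, 2.59 and 1.33 on d 9, 1.87, 1.86 and 0.87 on d 16 and 5.08 in serum, none of them well above background.

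**Figure D1:**
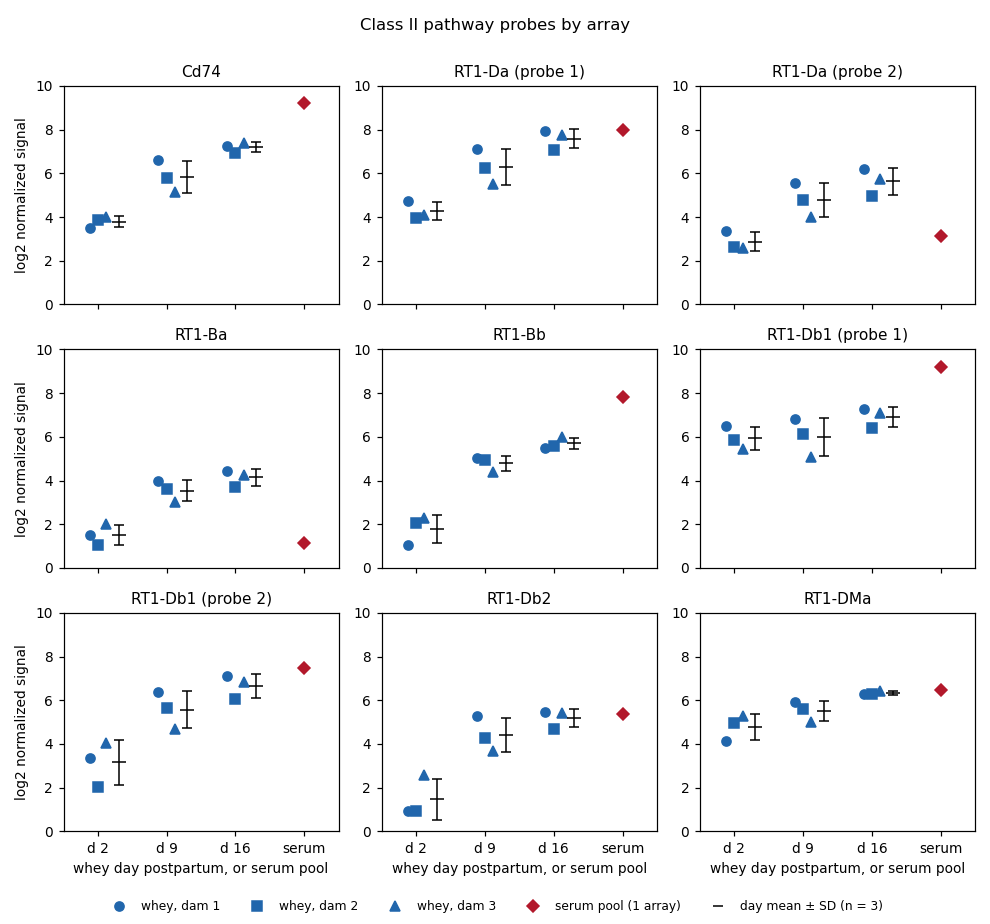
Log2 normalized signal of the 9 tested class II pathway probes on each array, by whey day postpartum and in the serum pool, with a symbol for each dam, black dashes for the day mean and bars for the SD (n = 3). The d 2 values lie below all later whey values in 7 of the 9 panels; those of the first RT1-Db1 probe (labelled probe 1) and of RT1-DMa overlap with d 9, and on d 9 dam 1 is highest and dam 3 lowest in every panel.

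On d 9, dam 1 was higher than dam 2 and dam 2 higher than dam 3 for 9 of 9 tested class II probes and for 18 of 31 class I probes. The 75th percentile of the array ran the other way, at 21.2, 41.8 and 83.2 for dams 1, 2 and 3, and its part in that order was not tested. On d 16 dam 2 was lowest for 7 of the 9 class II probes. The probes share arrays and are not independent of each other.

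The slide of d 2 and d 9 arrays bears on the d 2 to d 9 difference. Within slide 2, where the d 9 arrays lay with d 2 whey of dam 3 alone, all 9 class II probes were still higher on d 9, with log2 differences of 0.24 to 2.51. With the slide as a block, limma called 1 of the 9, RT1-Bb (adjusted p 0.0358), and within slide 2 it called 0, with a smallest adjusted p of 0.128. Without the d 2 or the d 9 array of dam 2, 4 of the 9 were called on d 9. The sizes also depended on the background correction, since with the normexp method the log2 difference on d 16 against d 2 was 1.37 for Cd74 and 1.58 for the first RT1-Da probe, both still called.

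Among class I transcripts, all 4 probes of the light chain and a minority of heavy chain probes were called higher on d 16 than on d 2. Between d 2 and d 9 limma called 5 of 31 tested class I probes higher, 3 of them for B2m, against 17.6% of all tested probes called and 11.3% higher. By d 16 it called 10 of the 31 higher than on d 2, 4 of them for B2m, against 28.5% called in either direction and 16.0% higher. The class I share lay near the former and above the latter, which is the share in the same direction. Because 8 of the 31 passed the filter through later days, nothing is read from this share. Between d 9 and d 16 it called 1 higher, also for B2m, and in none of the 3 comparisons did it call a class I probe lower. Their median log2 difference was 0.14 on d 9 against d 2, 0.51 on d 16 against d 2 and 0.49 on d 16 against d 9, and with scaling to the spike-in probes the last became -0.38, beside -0.93 over all tested probes. With that scaling limma called 12 class I probes higher on d 9 than on d 2, 0 on d 16 than on d 2 and 0 on d 16 than on d 9. The share of all tested probes called with that scaling was not computed. From d 2 to d 9 the median log2 difference with it was 1.57 for class I and 1.52 over all tested probes. Nothing is read from the 12 calls.

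B2m encodes beta-2-microglobulin, the light chain that every class I heavy chain needs to reach the cell surface. The most intense of its 4 probes (chromosome 3, 108931019 to 108932504) had 13.28, 13.06 and 13.07 on d 2, 13.77, 13.70 and 13.46 on d 9, 14.26, 14.63 and 14.28 on d 16 and 16.02 in serum. The 3 days did not overlap, and serum was higher still. The log2 difference from d 2 was 0.50 on d 9 (SE 0.15, limma adjusted p 0.0570) and 1.25 on d 16 (SE 0.15, limma adjusted p 0.00145). All 4 probes, which measure 1 gene, kept the 3 days apart. For d 16 against d 9 alone, 11.7% of tested probes did not overlap and were higher, and no share was computed for 3 days apart. Their log2 rise from d 2 to d 16 was 1.25 to 1.39.

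A second B2m probe (108931038 to 108932523) had 11.98, 11.71 and 11.68 on d 2, 12.43, 12.50 and 12.15 on d 9, 13.01, 13.32 and 13.22 on d 16 and 15.26 in serum. It was the only member called between d 9 and d 16, by a log2 difference of 0.82 (SE 0.15, limma adjusted p 0.0494). With the dam as a block this was no longer called (adjusted p 0.0856), and the difference was -0.07 with scaling to the spike-in probes. Its difference of 0.57 from d 2 to d 9 had a limma adjusted p of 0.0402, and of 0.0574 with the dam as a block. The other 2 probes rose by 0.92 and 0.77 from d 2 to d 9 (limma adjusted p 0.00512 and 0.0113). With the slide as a block none of these 3 probes was called on d 9 (adjusted p 0.160, 0.0618 and 0.102).

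Psmb8, Psmb9 and Psmb10 encode the catalytic subunits that make the immunoproteasome. Psmb8 (chromosome 20, 4787980 to 4788039) had 9.77, 9.95 and 9.86 on d 2, 10.22, 10.43 and 10.57 on d 9, 9.99, 10.05 and 9.94 on d 16 and 9.10 in serum. The d 9 values lay above all others, and serum was lower than every whey array. It was 0.54 higher on d 9 than on d 2 on the log2 scale (SE 0.13, limma adjusted p 0.0248), and its difference from d 9 to d 16 was -0.41 (SE 0.13, limma adjusted p 0.152). With the slide as a block the adjusted p of the former was 0.183.

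Psmb9 had 9.25, 9.19 and 8.93 on d 2, 9.19, 9.55 and 9.5 on d 9, 9.06, 9.53 and 9.18 on d 16 and 10.44 in serum. Psmb10 had 9.94, 9.72 and 9.84 on d 2, 9.77, 9.92 and 9.91 on d 9, 9.71, 9.98 and 9.69 on d 16 and 10.43 in serum. Their days overlapped and no difference was called. The 95% intervals from d 2 to d 16 were -0.27 to 0.54 for Psmb9 and -0.33 to 0.26 for Psmb10.

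The transporter subunits Tap1 and Tap2 and the tapasin gene Tapbp were dim. Tap1 (chromosome 20, 4792827 to 4793962) had 4.43, 4.14 and 4.07 on d 2, 4.79, 4.59 and 3.75 on d 9 and 4.24, 3.65 and 3.97 on d 16, and its serum value of 1.88 was not well above background. Tapbp had 3.72, 3.90 and 3.88 on d 2, 3.66, 4.12 and 3.50 on d 9, 4.08, 4.58 and 4.31 on d 16 and 6.83 in serum. Neither was called in any of the 3 comparisons, and the limma adjusted p from d 2 to d 16 was 0.532 for Tap1 and 0.0987 for Tapbp. Tap2 was well above background on 5 of 9 whey arrays but did not reach the minimum signal, and had 3.24, 3.53 and 3.73 on d 2, 3.05, 3.09 and 2.84 on d 9 and 2.98, 2.97 and 3.05 on d 16.

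Of the 36 heavy chain probes 22 were tested, and limma called 1 higher on d 9 than on d 2, 6 higher on d 16 than on d 2 and 0 between the later days, beside the same overall shares of 11.3% and 16.0% higher. Of the 16 heavy chain probes that were well above background on all 9 whey arrays it called 0, 4 and 0. The 4 were those of RT1-CE16, RT1-CE2, RT1-Cl and RT1-EC2. For 13 of the 16 the d 16 values lay above all d 2 values, against 25.9% of all tested probes, and their median log2 difference was 0.54 on d 16 and -0.03 on d 9, both against d 2.

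RT1-Cl (chromosome 20, 3510181 to 3510230) had 7.25, 7.08 and 7.03 on d 2, 7.56, 7.37 and 6.89 on d 9, 7.87, 7.87 and 8.18 on d 16 and 10.07 in serum. RT1-CE16 had 7.58, 7.34 and 7.55 on d 2, 7.88, 7.59 and 7.20 on d 9, 8.27, 7.99 and 8.42 on d 16 and 9.73 in serum. RT1-CE2 had 7.99, 7.59 and 7.73 on d 2, 8.22, 7.92 and 7.49 on d 9, 8.51, 8.24 and 8.60 on d 16 and 9.998 in serum. In these 3 genes d 2 and d 9 overlapped, d 16 lay above d 2 in every dam, and serum was higher than any whey array. The log2 rise from d 2 to d 16 was 0.85 for RT1-Cl (SE 0.19, limma adjusted p 0.0151), 0.74 for RT1-CE16 (SE 0.20, limma adjusted p 0.0279) and 0.68 for RT1-CE2 (SE 0.21, limma adjusted p 0.0465). The other RT1-Cl probe had 4.67 to 5.72 in whey and a limma adjusted p of 0.0518.

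RT1-A2, named for the classical class I region, had 7.50, 7.26 and 7.33 on d 2, 7.64, 7.34 and 6.92 on d 9, 7.99, 7.80 and 8.05 on d 16 and 9.64 in serum. Its log2 difference from d 2 to d 16 was 0.58 (95% interval 0.14 to 1.02, limma adjusted p 0.0549). A second, dimmer RT1-A2 probe that overlaps it on the genome had 3.19 to 3.95 on d 2 and 4.39 to 4.74 on d 16 and was called (0.95, SE 0.21, limma adjusted p 0.0146). Unlike the first, this probe passed the filter through later days alone, so its p-value describes it and supports nothing. The pair lay on opposite sides of the threshold with intervals that overlapped.

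RT1-CE3 had 5.995, 5.65 and 5.79 on d 2, 6.07, 5.74 and 5.52 on d 9, 6.41, 6.17 and 6.54 on d 16 and 8.48 in serum. Its log2 difference from d 2 to d 16 of 0.56 had a limma adjusted p of 0.0512, and of 0.0465 with the dam as a block. RT1-EC2 had 7.12, 6.87 and 6.95 on d 2, 7.34, 7.19 and 6.66 on d 9, 7.34, 7.41 and 7.72 on d 16 and 8.97 in serum by its most intense probe, with a limma adjusted p of 0.0947 from d 2 to d 16. Of its 4 probes, 2 dimmer ones were called from d 2 to d 16, 1 by 0.89 (SE 0.21, limma adjusted p 0.0190) and 1 with a limma adjusted p of 0.00740. The last was also the heavy chain probe called on d 9 (limma adjusted p 0.0167). It had 1.00, 1.80 and 2.35 on d 2, where it was well above background on no array, and 3.00 to 3.55 later, where it was so on 2 arrays of each day, so no fold is given. This probe too passed the filter through later days alone, so its p-values describe it and support nothing.

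The RT1-CE1, RT1-CE12, RT1-CE4 and RT1-M6-2 probes printed above, and the main probe of RT1-S3, were not called. RT1-CE1 had 7.35, 7.14 and 7.26 on d 2, 7.45, 7.16 and 6.77 on d 9, 7.64, 7.50 and 7.72 on d 16 and 10.07 in serum. RT1-CE12 had 7.33, 6.97 and 7.11 on d 2, 7.44, 7.16 and 6.70 on d 9, 7.70, 7.41 and 7.83 on d 16 and 9.82 in serum. The order of the arrays was nearly the same for both, whose probes differ at 5 bases. RT1-M6-2 had 7.23, 7.19 and 7.38 on d 2, 7.37, 7.10 and 6.84 on d 9, 7.59, 7.34 and 7.58 on d 16 and 9.76 in serum. RT1-CE4 had 7.81, 7.63 and 7.71 on d 2, 7.88, 7.67 and 7.27 on d 9, 8.08, 7.93 and 8.20 on d 16 and 10.27 in serum. RT1-S3 had 6.52, 6.42 and 6.33 on d 2, 6.80, 6.32 and 5.997 on d 9, 7.04, 6.68 and 7.03 on d 16 and 8.39 in serum. In all 5 genes the lowest whey value was that of dam 3 on d 9, and log2 differences from d 2 to d 16 were 0.23 to 0.51. Dimmer second probes of RT1-CE4 and RT1-S3 were not called either (limma adjusted p from d 2 to d 16 of 0.169 and 0.0579).

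RT1-CE5 went another way and had 8.04, 7.55 and 7.06 on d 2, 7.30, 6.86 and 6.23 on d 9, 7.59, 7.38 and 7.30 on d 16 and 9.78 in serum. Its log2 difference from d 2 to d 9 was -0.75 (95% interval -1.49 to -0.01, limma adjusted p 0.140), and with the dam as a block the adjusted p was 0.0387. RT1-CE7 had 3.78 to 4.88 in whey, and neither gene was called from d 2 to d 16. RT1-CE6, well above background on 1 array, and RT1-M4, on 5 whey arrays, were tested and not called. The heavy chain probes of RT1-A3, RT1-CE10, RT1-M10-1, RT1-M2, RT1-M3-1, RT1-M5, RT1-N1, RT1-N3, RT1-T18, RT1-T24-1 and RT1-T24-2, and a second probe each of RT1-CE5 and RT1-M6-2, were not detected in whey.

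**Figure D2:**
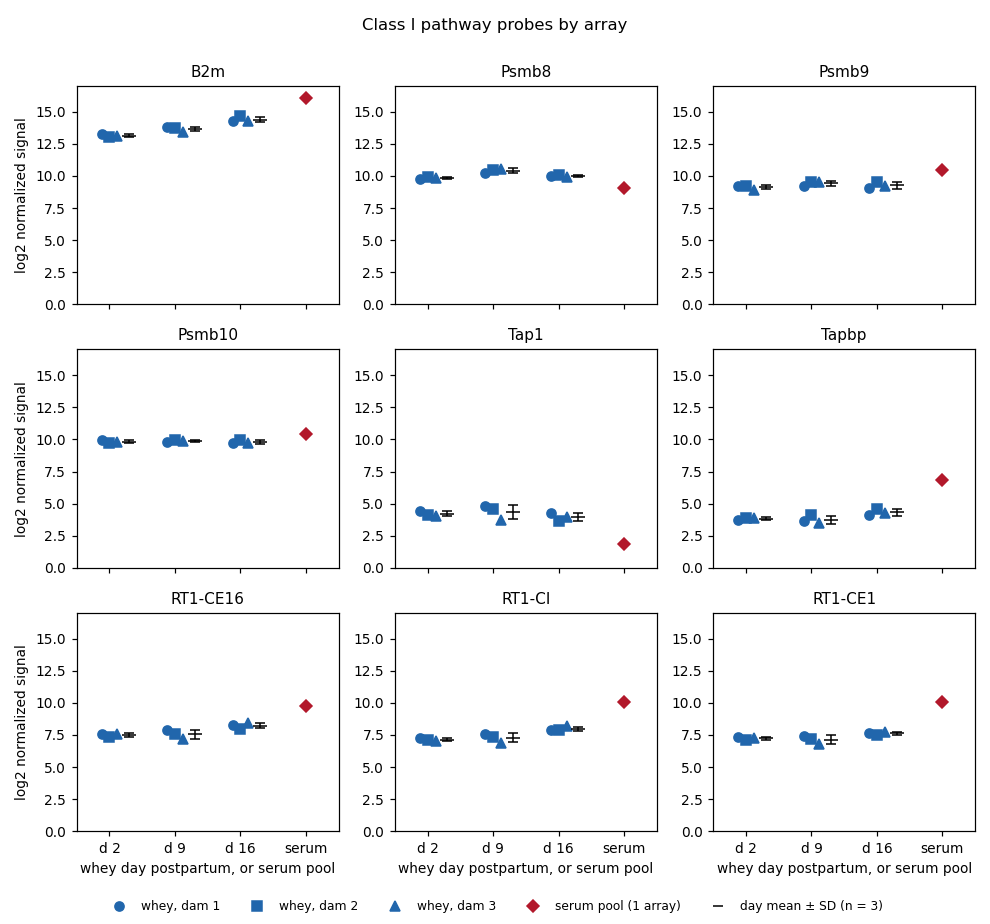
Log2 normalized signal of 9 class I pathway probes on each array, by whey day postpartum and in the serum pool, with a symbol for each dam, black dashes for the day mean and bars for the SD (n = 3). B2m steps up from 13.06 to 13.28 on d 2 to 14.26 to 14.63 on d 16, Psmb8 is highest on d 9, and serum lies above all whey arrays for B2m and the 3 RT1 heavy chains.

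**Figure D3:**
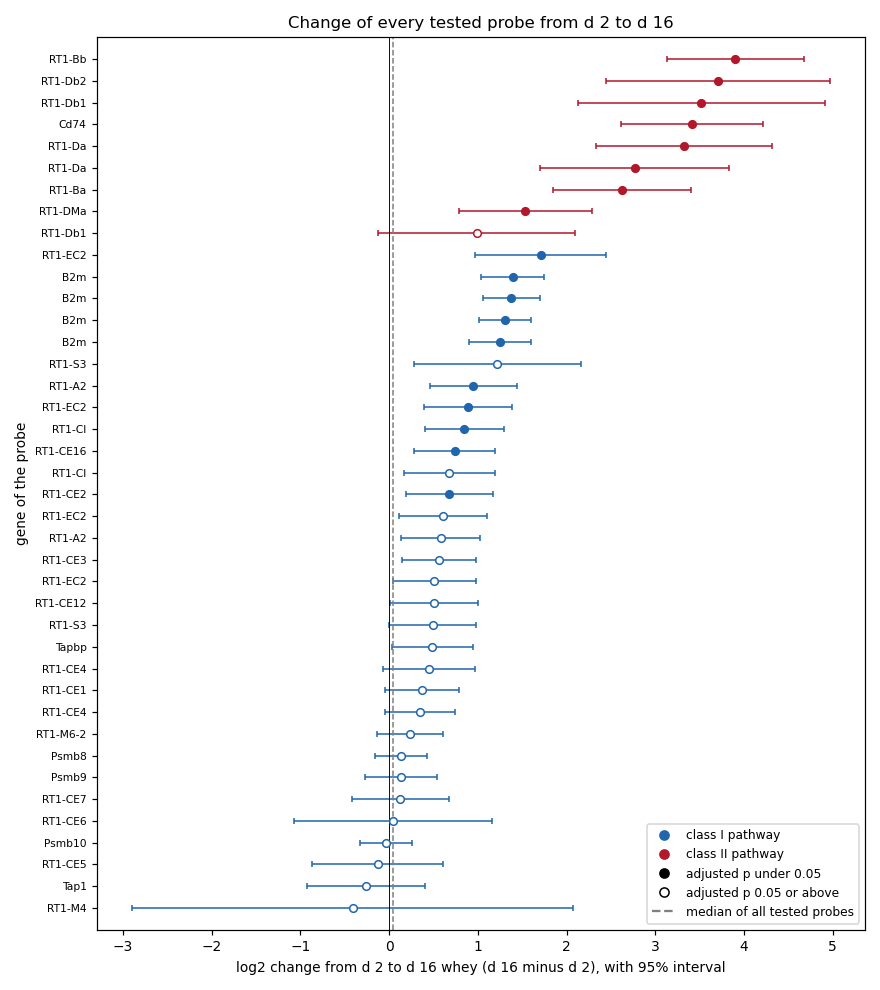
Log2 difference from d 2 to d 16 whey (x axis, d 16 minus d 2) of all 40 tested probes, named by gene on the y axis, with limma's 95% interval as bars; filled points had an adjusted p under 0.05 and the dashed line is the median of all 16849 tested probes, 0.04. The 9 class II probes run from 0.99 to 3.90 and the 31 class I probes from -0.41 to 1.71, where 4 class II and 2 class I probes were well above background on no d 2 array.

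Serum was set against the mean of the 9 whey arrays with no test. The lowest normalized signal well above background was 5.84 on the serum array and 2.12 to 4.11 on the whey arrays, so dim members cannot be read in serum. On all 10 arrays 22 class I probes were well above background, of which 12 were over 4-fold higher in serum and 0 over 4-fold higher in whey, against 17.4% and 8.69% of all 4637 such probes on the array. All 15 heavy chain probes among them were higher in serum than on any whey array, and 1.17 to 2.74 above the whey mean on the log2 scale. The median difference was -0.16 over all probes well above background on all 10 arrays. No share of those probes that lay above every whey array in serum was computed, so nothing is read from this count. Of the 2 class II probes so measured, the first RT1-Db1 probe was 2.91 and the first RT1-Da probe 1.96 higher in serum than the whey mean. These directions rest on the scaling, since the median whey minus serum difference was -1.99 over 37 class I and -1.96 over 11 class II probes above background on any array and became 1.28 and 1.25 with scaling to the spike-in probes, beside 0.77 and 2.69 over all probes.

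RT1-M4, a class Ib gene of the M region, stood apart in serum. It had 12.38 in serum and 4.23, 3.91 and 2.69 on d 2, 5.23, 2.33 and 4.19 on d 9 and 0.99, 3.84 and 4.77 on d 16, with 5 of 9 whey arrays well above background. RT1-T24-1 had 8.03 in serum, and 0.83 to 3.29 in whey, where 1 array was well above background. Psmb8 was the class I member measured on all arrays that was lower in serum, by 0.99 on the log2 scale against the whey mean. Blood cell transcripts were plentiful on the serum array, with Alas2 of red cell precursors at 13.07, Hbb at 14.72 and Pf4 of platelets at 16.09, against whey values of 1.04 to 1.31 for Alas2, and their part in the serum levels was not tested.

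In bulk RNA, fewer cells of a type and less RNA per cell cannot be told apart, and the methods describe whey that was spun and passed through filters to take out cells and debris. Levels of cell type markers are given beside the class II values as measured, and where the RNA came from was not tested. Of 13 macrophage markers 9 were tested, and against d 2 limma called 7 higher on d 9 and 8 on d 16, with Cd14 lower on both days. The overall shares called higher were 11.3% and 16.0%. Cd68, Lyz2 and C1qc were well above background on 6 of 9 whey arrays, C1qa on 7 and the other tested markers on all 9. For the dimmer ones the filter could favour a difference from d 2, so nothing is read from these counts. The mean level of the 9 tested markers was 4.88 to 5.06 on d 2, 5.88 to 6.81 on d 9, 7.46 to 7.71 on d 16 and 8.88 in serum. On d 9 it ran 6.81, 6.43 and 5.88 for dams 1, 2 and 3. The mean of the 9 class II probes was 3.04 to 3.59, 4.50 to 5.86, 5.75 to 6.38 and 6.42, so both sets were lowest on d 2, highest among whey days on d 16 and ordered alike over the dams on d 9. This was not particular to them. The mean of the tested class I probes was also lowest on d 2 and highest on d 16, and ran 7.10, 6.835 and 6.68 on d 9. Mammary epithelium markers had the same order over the dams on d 9 (12.56, 12.32 and 12.24), while T cell markers did not (4.11, 4.51 and 3.62). Macrophage markers and class II probes were not ordered alike on d 16, where dam 2 was highest for macrophage markers (7.46, 7.71 and 7.55 for dams 1, 2 and 3) and lowest for class II (6.38, 5.75 and 6.32), nor on d 2. Of the markers that define macrophages, Csf1r, Itgam and Cd163 were well above background on no whey array and Mrc1 on 1. No dendritic cell or B cell marker was tested, although Ccr7 was well above background on 4 whey arrays and Cd83 and Ms4a1 on 1 each, and Cd79b and Cd22 were so on none. Of 8 T cell markers, Cd3d and Cd3g were called higher on d 16 than on d 2, and Cd3e, Cd4, Cd8a and Cd5 were well above background on no whey array.

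**Figure D4:**
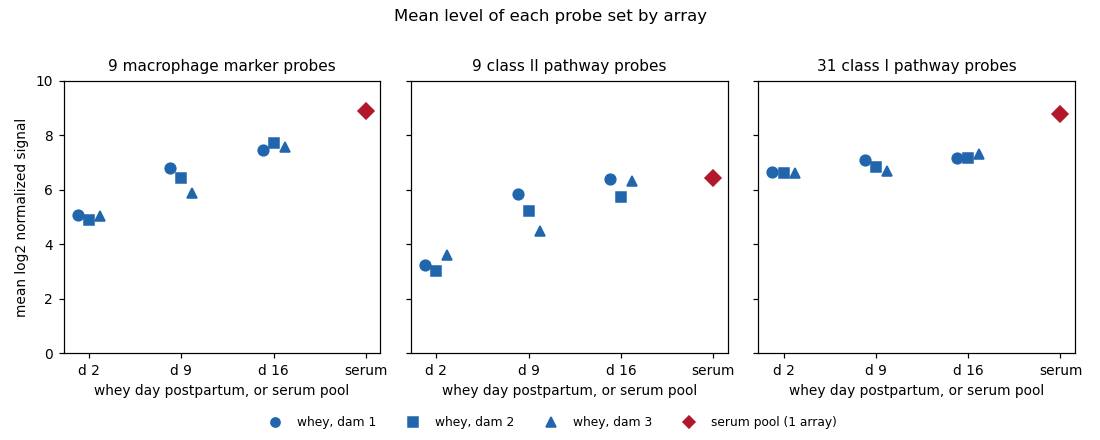
Mean log2 normalized signal of 9 tested macrophage marker probes, the 9 tested class II probes and the 31 tested class I probes on each array, by whey day postpartum and in serum, with a symbol for each dam. Macrophage markers run from 4.88 to 7.71, class II probes from 3.04 to 6.38 and class I probes from 6.62 to 7.33 over the whey arrays. In all 3 sets every d 16 mean lies above every d 2 mean.

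Other genes of antigen presentation were taken from fixed lists. Of 11 tested genes of peptide supply and loading on class I, 2 were higher and 1 lower on d 16 than on d 2, against 28.5% of all tested probes called. The chaperone genes Canx and Hspa5 were higher by 0.81 and 0.78 on the log2 scale (limma adjusted p 0.0440 and 0.00336), Hspa5 already so on d 9 (0.51, limma adjusted p 0.0250), and Psmb6, the constitutive subunit that Psmb9 replaces, was lower (-0.46, limma adjusted p 0.0248). Psmb5, which Psmb8 replaces, had a difference of 0.04 from d 2 to d 9 (limma adjusted p 0.822). The proteasome activators Psme1 and Psme2 and the trimming enzyme Erap1 were not called between d 2 and d 16.

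Of 8 tested genes of the class II compartment, 3 were called from d 2 to d 16, all higher, against 16.0% of all tested probes called higher. These were the protease genes Ctss (0.87, limma adjusted p 0.00849), which trims the invariant chain, and Ctsb (1.19, limma adjusted p 0.00903), and the membrane protein gene Cd63 (1.48, limma adjusted p 0.00300). From d 2 to d 9 Ctss differed by 0.03 and Ctsb by 0.03, and Ctsd was lower (-1.46, limma adjusted p 0.0110).

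Of 12 tested regulators, 2 were called from d 2 to d 9, both higher, near the overall shares of 17.6% called and 11.3% higher. These were Nfyb and Nfyc, subunits of NF-Y, by 0.73 and 0.80 (limma adjusted p 0.00693 and 0.0161). Nfyb was 6.95, 6.96 and 6.78 on d 2, 7.55, 7.72 and 7.61 on d 9 and 6.91, 7.04 and 6.89 on d 16, so that d 9 stood apart, and it was lower again on d 16 than on d 9 (limma adjusted p 0.0362). The RFX subunits Rfxap and Rfxank were not called, and Rfx5 and Nfya were well above background on no whey array. Irf1, Ifngr1 and Ifngr2, of the interferon-gamma response, were not called in any of the 3 comparisons. Creb1 and Jak2 were higher on d 16 than on d 2 by 0.81 and 0.73 (limma adjusted p 0.0447 and 0.0405). They were the only regulators called there, near the overall share of 16.0% higher. The neonatal Fc receptor heavy chain Fcgrt, which also pairs with B2m, was well above background neither in whey nor in serum, and neither were the costimulatory Cd80, Cd86 and Cd40. Cd1d1, a class I-like gene, had 5.29 to 6.31 in whey and was not called.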

How the data were processed

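Whey RNA of 3 dams on 3 days and 1 serum pool were hybridised to 1-colour Agilent rat arrays. The deposited intensities are processed signals that the authors' scans gave in Agilent Feature Extraction 9.5.3.1, background-subtracted but not scaled between arrays; 10 sample columns of a series table were not used. Here log2 processed signals were quantile-normalized over 10 arrays, outlier spots left out and spots averaged per probe. The 16849 probes detected in whey were tested with limma 3.58.1 (R 4.3.3, lmFit and eBayes, 9 whey arrays, Benjamini-Hochberg over all of them, threshold 0.05, prior degrees of freedom 1.83), so p-values rest on 3 dams a day. Titles number the dams, which pairs the days; deviations of arrays of the same dam correlated at -0.018 to 0.218 and of different dams at -0.254 to 0.158, and the block on dam was an alternative. A gene with several probes is described by the probe well above background on most arrays, then by mean signal; full values are given for genes above background on all whey arrays, up to 15 per pathway, and for the named loading genes. Members and lists were chosen with earlier results of these data known. Counts by detection on d 2 were added after seeing the data. Alternatives were scaling, background correction, filters, blocks on dam and slide, Tukey-Kramer, and each array left out. The number of arrays limits precision. Probe sequences were aligned with Biopython 1.88.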

Additional observations from a re-analysis of the deposited data

How the results depend on the processing

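Class II calls from d 2 to d 16 numbered 8 in every fit without 1 array. Those fits keep the same filter, which 6 of the 9 tested probes passed through later days alone, so nothing is read from this steadiness. Without 1 array, class II counts ranged from 4 to 7 from d 2 to d 9 (7 of 9 with all arrays). Between d 9 and d 16 they ranged from 0 to 1. Class I counts ranged from 3 to 5 from d 2 to d 9, 5 to 15 from d 2 to d 16 and 0 to 1 between d 9 and d 16. The class II count from d 2 to d 9 was 4 without dam 2 of d 2 or of d 9. The class I count from d 2 to d 16 was 5 without dam 3 of d 16, and that from d 2 to d 9 was 3 without dam 2 or 3 of d 2 or dam 2 of d 9. Detected members ranged without 1 array from 24 to 26 on d 2, 38 to 40 on d 9 and 37 to 38 on d 16, and a minimum signal of 100 left 17, 24, 25 and, in serum, 10. That minimum gave 3, 4 and 1 class II calls (d 2 to d 9, d 2 to d 16, d 9 to d 16) and 3 class I calls between d 9 and d 16, and a test of only the probes that every whey array measured above background gave 1 and 1 class II calls against d 2 and 3 class I calls between d 9 and d 16, since both test fewer probes. Without a filter, with the 75th percentile, or with the whey arrays normalized alone, 0 class I probes were called between d 9 and d 16. Scaling to the spike-in probes gave 12, 0 and 0 class I calls, with no share over all tested probes computed. The normexp correction gave 5 class I calls and 1 class II call between d 9 and d 16. The slide as a fixed block gave 0 class I calls and 1 class II call from d 2 to d 9, comparison within the slide that holds both days gave 0 and 0, and the slide as a random block gave 3 class I calls between d 9 and d 16. With the dam as a replicate block, 0 class I probes were called between d 9 and d 16, and beside the 4 calls of B2m, RT1-CE3 and RT1-CE5 given above no other call changed. The methods' Tukey-Kramer test gave 3, 5 and 0 class I calls and 2 class II calls from d 2 to d 9. Counting 1 probe per gene, chosen after seeing the data, gave 1, 4 and 0 class I calls. Of 18 probes called from d 2 to d 16, 7 stayed called under every alternative run for them. All 7 were class II probes, and all but the first of RT1-Da had passed the filter through later days alone. For the 12 called from d 2 to d 9 no such count is read. Only they faced the fixed slide block and the fit within slide 2, which both rest on 1 d 2 array. The cause of these shifts was not tested. Scaling to the spike-in probes turned the log2 difference of B2m between d 9 and d 16 to -0.067. It turned that of whey minus serum to 1.654 for RT1-A2, 0.278 for RT1-A3, 0.959 for RT1-CE1, 1.198 for RT1-CE12, 1.215 for RT1-CE3, 1.178 and 1.215 for RT1-CE4, 1.219 for RT1-CE5, 1.074 and 1.144 for RT1-Cl, 1.185 for RT1-EC2, 1.283 for RT1-M6-2, 0.548 for Tapbp, 0.059 for RT1-Bb, 0.809 and 1.255 for RT1-Db1 and 0.120 for Cd74, with medians of 1.283 for class I and 1.255 for class II. Normexp turned it to 0.011 for RT1-Bb. Dim signal limits class II on d 2, Tap2, Ciita and most members in serum.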
